A study of Sus scrofa with 2 samples.

Results

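Arterial endothelial nuclei line the vessels that feed the heart muscle. In these data they were a set of 544 of 31664 kept nuclei, 475 of them in the TG library and 69 in the WT library. Members were chosen by marker transcripts, counted as unique molecular identifiers (UMIs). A member held at least 3 UMIs summed over SLPI, GJA5, SEMA3G, SOX17 and HEY1. It also held at least 5 UMIs, and at least 0.25% of its UMIs, from FLT1, PECAM1, VWF, PTPRB and ADGRL4, which mark endothelium. RYR2 and CTNNA3 of cardiomyocytes had to stay under 1% of UMIs, and MMRN1 and RELN of lymphatic endothelium under 3 UMIs. PLVAP had to stay under 2 UMIs, and LRFN5, KIRREL3, MYRIP and STC1 under 4 UMIs in sum. Nuclei with fewer than 500 genes or with over 5% mitochondrial UMIs were left out, which kept 14939 nuclei in TG and 16725 in WT.

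The tissue was frozen free wall of the left ventricle, from pigs of the miniature Bama breed. TG stands for a triple-transgenic pig carrying PNPLA3 I148M, GIPRdn and hIAPP, and WT for a wild-type pig. Both genotypes ate a high-fat-high-sucrose diet for 12 months, so no library from another diet is compared here, and the labels name neither the promoters of the transgenes nor the age or sex of the pigs. Nuclei were freed by homogenization, cleaned on iodixanol and profiled with the 10x Genomics 3' v3.1 chemistry. There was 1 library per genotype. No difference between TG and WT therefore has a replicate check or a p-value, and every interval below is a 95% interval for counting error.

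Arterial endothelial cells keep a distinct identity through Notch signalling, in which the ligands DLL4, JAG1 and JAG2 on a cell activate NOTCH receptors on its neighbour. HEY and HES genes are among the targets of the signal. SOX17 is a transcription factor upstream of arterial Notch genes. GJA5 and GJA4 encode connexins, the gap junction proteins through which arterial endothelium conducts electrical signals along the wall. SEMA3G is a secreted semaphorin of arterial endothelium, and SLPI a secreted inhibitor of leukocyte proteases.

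The members held 1560216 UMIs in TG and 263321 UMIs in WT. Their median depth was 2943 UMIs and 1659 genes in TG, against 3462 UMIs and 1726 genes in WT. Mitochondrial transcripts made up a median of 0.781% of UMIs in TG members and 0.961% in WT members. The libraries had unequal floors of depth: the shallowest kept nucleus had 1972 UMIs in TG and 602 UMIs in WT. They shared 81 barcodes, 75 of them among kept nuclei and 0 among members. Because WT rests on 69 nuclei, a single nucleus can carry a WT level, and the share of the fullest nucleus is given beside values that lean on one.

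Each of the 5 selecting markers was found in members of both libraries. These values chose the members and are given as a description. SLPI reached 1131 CPM, meaning UMIs per 1e+06 nuclear-encoded UMIs, in TG members and 658 CPM in WT members, and 91.2% of TG members and 81.2% of WT members held an SLPI UMI. GJA5 stood at 287 CPM in TG and 223 CPM in WT, SEMA3G at 235 CPM in TG and 269 CPM in WT, and HEY1 at 157 CPM in TG and 127 CPM in WT. SOX17 was at 97.7 CPM in TG and 104 CPM in WT. RefSeq places these genes on the Sscrofa11.1 build, with SLPI at chr17:47595804-47598364, GJA5 at chr4:99854129-99871288, SEMA3G at chr13:34574014-34585686, SOX17 at chr4:76854218-76857143 and HEY1 at chr4:56859640-56863807.

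SLPI weighed most in the choice. It gave 59.3% of the marker UMIs of TG members and 47.6% of those of WT members. SLPI alone admitted 121 TG members and 9 WT members, in which none of the other markers was detected. Without SLPI in the sum, 148 TG nuclei and 33 WT nuclei still reached 3 UMIs. SLPI was also the marker found most outside endothelium, at 17.7 CPM in TG and 1.82 CPM in WT. A profile at those levels, with the median depth of an endothelial nucleus, would hold 0.0537 SLPI UMIs in TG and 0.00548 in WT. Whether free RNA has the profile of these nuclei was not tested. In the endothelial nuclei left out for LRFN5, KIRREL3, MYRIP and STC1, SLPI was at 292 CPM in TG and 54.4 CPM in WT. All 5 markers summed to 666 CPM in TG and 257 CPM in WT there. Outside endothelium they summed to 29.5 CPM in TG and 7.14 CPM in WT. The markers were thus higher in TG beyond members too, and the part of this in the shares below was not tested. The part of SLPI RNA from other cells in the choice of members was not tested either. Results are therefore also given for the nuclei chosen without SLPI.

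**Figure D1:**
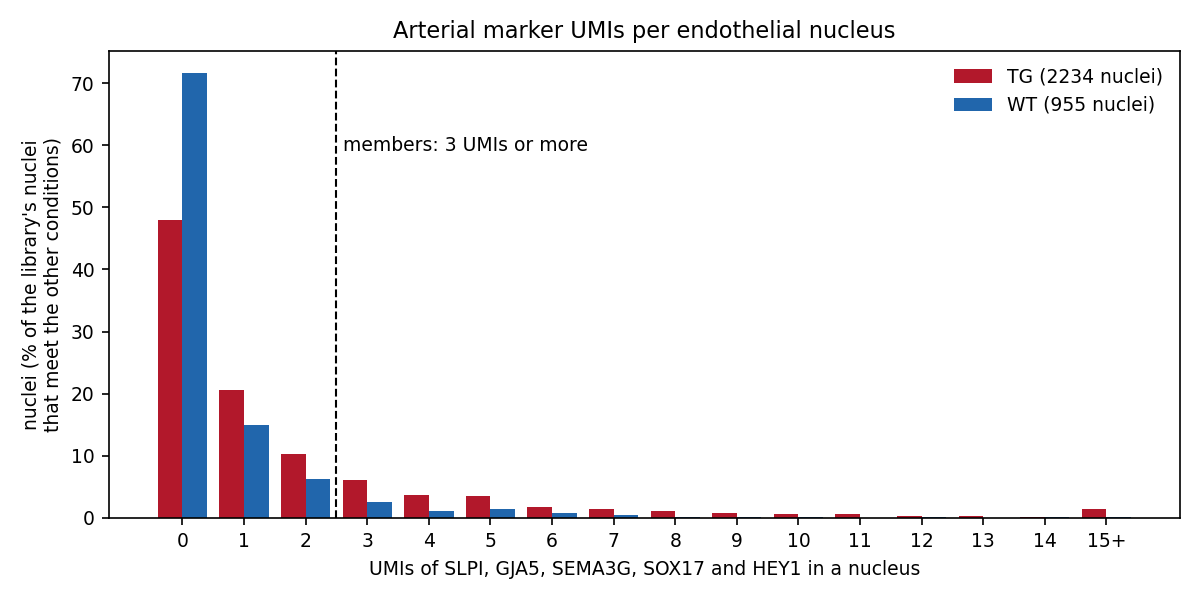
UMIs of the 5 selecting markers per nucleus, as a percentage of the nuclei of each library that meet every other condition, for TG (red, left bar) and WT (blue, right bar). The dashed line marks the threshold of 3 UMIs. In TG 47.9% of these nuclei held none of the 5 markers, against 71.6% in WT, and neither library shows a gap at the threshold.

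The threshold did not fall in a gap. Just inside it, 136 TG members and 24 WT members held exactly 3 marker UMIs. Just outside it, 228 TG nuclei and 59 WT nuclei held 2 UMIs. Members with 1 detected marker numbered 129 in TG and 12 in WT, with 2 markers 188 in TG and 30 in WT, and with all 5 markers 9 in TG and 1 in WT. The comparison class used below, called capillary-type, is the set of 1071 TG and 684 WT endothelial nuclei that met the other conditions and held 0 UMIs of the 5 markers.

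Members made up a larger share of nuclei in TG than in WT. They were 3.18% of kept nuclei in TG (interval 2.90 to 3.47) and 0.413% in WT (0.321 to 0.522), a ratio of 7.71 (5.98 to 10.1). All vascular endothelial nuclei were also more frequent, at 20.5% of kept nuclei in TG and 8.78% in WT. Within vascular endothelium members were 15.5% in TG (14.3 to 16.9) and 4.70% in WT (3.68 to 5.91), a ratio of 3.30 (2.56 to 4.32). Capillary-type nuclei were 35.0% of vascular endothelium in TG and 46.6% in WT.

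The size of that ratio depended on SLPI. With SLPI left out of the sum, the nuclei chosen made up 4.84% of vascular endothelium in TG and 2.25% in WT, a ratio of 2.15 (1.47 to 3.24). Of all kept nuclei they were 0.991% in TG and 0.197% in WT, a ratio of 5.02 (3.42 to 7.56). With every nucleus thinned to 2000 UMIs, 393 TG and 41 WT members remained, and the ratio was 9.60 of kept nuclei and 3.59 of vascular endothelium. Thinning left out 174 TG and 1934 WT kept nuclei that were shallower. With 1 pig or pool behind each library, nuclei isolation, the piece of tissue taken and the genotype cannot be told apart as sources of a share.

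Genes known for arterial identity that played no part in the choice were higher in members than in capillary-type nuclei of the same library. Of 28 measured genes, meaning genes whose UMIs in the members of TG and WT summed to 20 or more, 27 were higher in TG and 26 in WT, and 26 in both. Among all 9180 measured genes 53.7% were higher in TG members and 53.2% in WT members by any amount. The median log2 ratio of the list, arterial over capillary-type, was 0.92 in TG and 1.29 in WT, against 0.03 and 0.05 over all genes. Since members were picked on arterial markers, this contrast describes the class and tests nothing. When members were chosen without SLPI, the medians were 1.51 in TG and 1.65 in WT. With the profile of nuclei outside endothelium taken off as an estimate of free RNA, the TG median turned negative. That step cut the total by 85.5% in TG members and by 96.5% in TG capillary-type nuclei. The unequal cut lowers the ratio of every gene in this contrast. The median of all genes was not computed for it, so the negative sign does not show a loss of arterial identity. The value of the TG median is given with the processing settings at the end.

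By the lower of the log2 ratios in the libraries, SSUH2, BMX and PRDM16 were the steepest of these genes, all at low levels. SSUH2 was at 19.4 CPM in TG members and 19.2 CPM in WT members, against 0.305 CPM in TG and 1.17 CPM in WT capillary-type nuclei, with 80.0% of its 5 WT UMIs in a single member. BMX, a tyrosine kinase of arterial endothelium, was at 14.9 CPM in TG members and 15.4 CPM in WT members, against 1.22 CPM in TG and 1.17 CPM in WT capillary-type nuclei. PRDM16, a transcription factor, was at 27.8 CPM in TG members and 76.9 CPM in WT members, against 2.44 CPM in TG and 8.75 CPM in WT capillary-type nuclei. In each of these genes the WT value rested on 20 UMIs or fewer.

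PCSK5, TMEM100, GJA4 and DKK2 came next and were more abundant. GJA4 stood at 55.6 CPM in TG members and 46.1 CPM in WT members, against 4.88 CPM in TG and 10.5 CPM in WT capillary-type nuclei. PCSK5, a proprotein convertase, was at 292 CPM in TG members and 458 CPM in WT members, against 39.0 CPM in TG and 36.1 CPM in WT capillary-type nuclei. DKK2, a secreted Wnt pathway modulator, was at 86.7 CPM in TG members and 53.8 CPM in WT members, against 5.18 CPM in TG and 13.4 CPM in WT capillary-type nuclei. In WT members 50.0% of the DKK2 UMIs came from a single nucleus. TMEM100, a membrane protein of arterial endothelium, was at 264 CPM in TG members and 331 CPM in WT members, against 48.8 CPM in TG and 67.1 CPM in WT capillary-type nuclei.

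The Notch ligands differed in how far they marked the class. JAG2 was at 152 CPM in TG members and 135 CPM in WT members, against 25.0 CPM in TG and 39.6 CPM in WT capillary-type nuclei. JAG1 differed less, with log2 ratios of arterial over capillary-type nuclei of 0.38 in TG and 0.40 in WT. The receptor NOTCH4 was close to equal, with log2 ratios of 0.06 in TG and 0.15 in WT. NRP1, a co-receptor for VEGF and semaphorins that capillary endothelium also makes, was the exception in both libraries, at log2 ratios of -0.50 in TG and -0.68 in WT. CLDN5, the main claudin of endothelial tight junctions, was higher in members in TG, at a log2 ratio of 1.55, and not in WT, at -0.18.

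**Figure D2:**
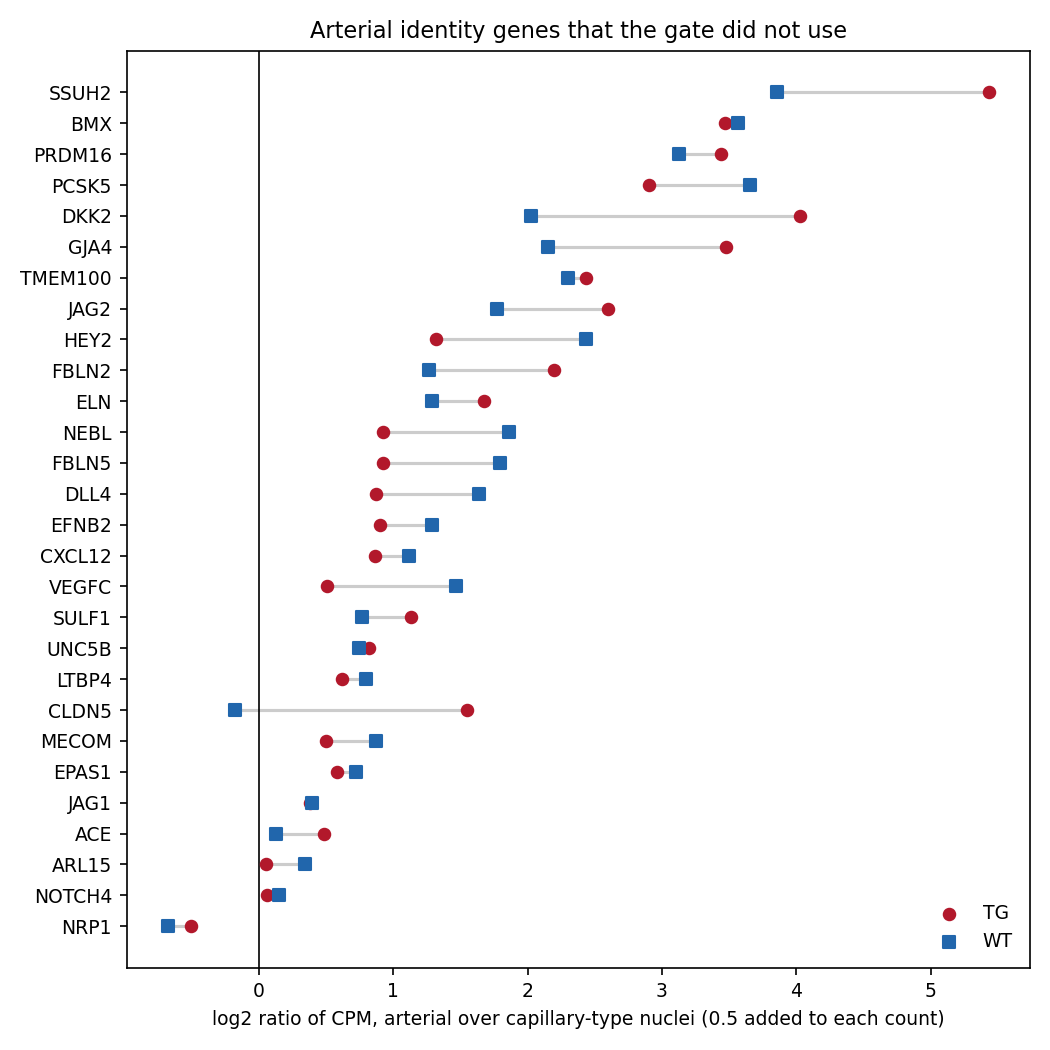
Log2 ratio of CPM in arterial over capillary-type nuclei for the 28 measured arterial identity genes outside the rule, in TG (red circles) and WT (blue squares). NRP1 lies below 0 in both libraries and CLDN5 in WT, and the other genes lie above 0, up to SSUH2.

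Over all genes outside the rule, those most clearly higher in members than in capillary-type nuclei in both libraries were MAB21L3, SCARA3, PCSK5, LURAP1L, KCNN3, AIF1L, CLU, RIMKLB, SYTL5, ATP13A3, COL23A1, PLCG2, ITPR3, ORAI1 and TMEM100. PCSK5 and TMEM100 are on the arterial identity list, and KCNN3, ITPR3 and ORAI1 on the list of gap junctions and ion channels. ORAI1, the pore of store-operated calcium entry, was at 75.7 CPM in TG members and 80.7 CPM in WT members, against 14.9 CPM in TG and 14.0 CPM in WT capillary-type nuclei. ITPR3, a calcium release channel of the endoplasmic reticulum, was at 53.0 CPM in TG members and 53.8 CPM in WT members, against 10.1 CPM in TG and 9.33 CPM in WT capillary-type nuclei. KCNN3, a calcium-activated potassium channel that takes part in endothelial hyperpolarization, was at 34.9 CPM in TG members and 131 CPM in WT members, against 5.79 CPM in TG and 14.6 CPM in WT capillary-type nuclei. PLCG2, a phospholipase that releases inositol trisphosphate, was at 79.6 CPM in TG members and 100 CPM in WT members, against 14.9 CPM in TG and 9.91 CPM in WT capillary-type nuclei. ORAI1 and ITPR3 thus stood at nearly the same level in both genotypes, and KCNN3 did not.

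COL23A1, a transmembrane collagen, was at 221 CPM in TG members and 150 CPM in WT members, against 16.2 CPM in TG and 27.99 CPM in WT capillary-type nuclei, with 38.5% of its WT UMIs in a single member. SCARA3, a scavenger receptor family member, was at 113 CPM in TG members and 165 CPM in WT members, against 10.4 CPM in TG and 13.4 CPM in WT capillary-type nuclei. Other endothelial nuclei held these genes too. In the MYRIP and LRFN5 endothelial nuclei that the rule left out, 5 of the 15 genes were as high as in members or higher in TG, and 4 of 15 in WT. COL23A1 reached 257 CPM there in TG and 339 CPM in WT, and RIMKLB 44.2 CPM in TG and 50.8 CPM in WT, against 35.6 CPM in TG members and 49.99 CPM in WT members. PCSK5, TMEM100 and LURAP1L were the others in TG, and KCNN3 and CLU in WT, with KCNN3 at 154 CPM.

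Genes lower in members than in capillary-type nuclei in both libraries were NAV3, ENPP1, TNIK, NTF3, ZNF521, CALCRL, SYBU, MAST2, VAV3 and ARHGAP18. CALCRL encodes the receptor that forms adrenomedullin receptors with RAMP2 and RAMP3. It was at 409 CPM in TG members and 496 CPM in WT members, against 906 CPM in TG and 1269.9 CPM in WT capillary-type nuclei. NTF3, which encodes the growth factor neurotrophin 3, was at 31.7 CPM in TG members and 30.8 CPM in WT members, against 74.7 CPM in TG and 101 CPM in WT capillary-type nuclei.

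Members were not uniform, and their identity followed the strength of the markers. The summed level of the arterial identity list was 12106 CPM in TG and 15745 CPM in WT nuclei with exactly 3 marker UMIs. In nuclei with 5 or more it was 13591 CPM in TG and 20056 CPM in WT. In capillary-type nuclei it was 9642 CPM in TG and 11353 CPM in WT. The capillary list, which holds CA4, RGCC and others, summed to 7471 CPM in TG and 6605 CPM in WT at 5 or more marker UMIs, against 9974 CPM in TG and 9357 CPM in WT capillary-type nuclei. At exactly 3 marker UMIs it summed to 9305 CPM in TG and 10505 CPM in WT, so at the threshold the capillary transcripts were as abundant as in capillary-type nuclei.

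**Figure D3:**
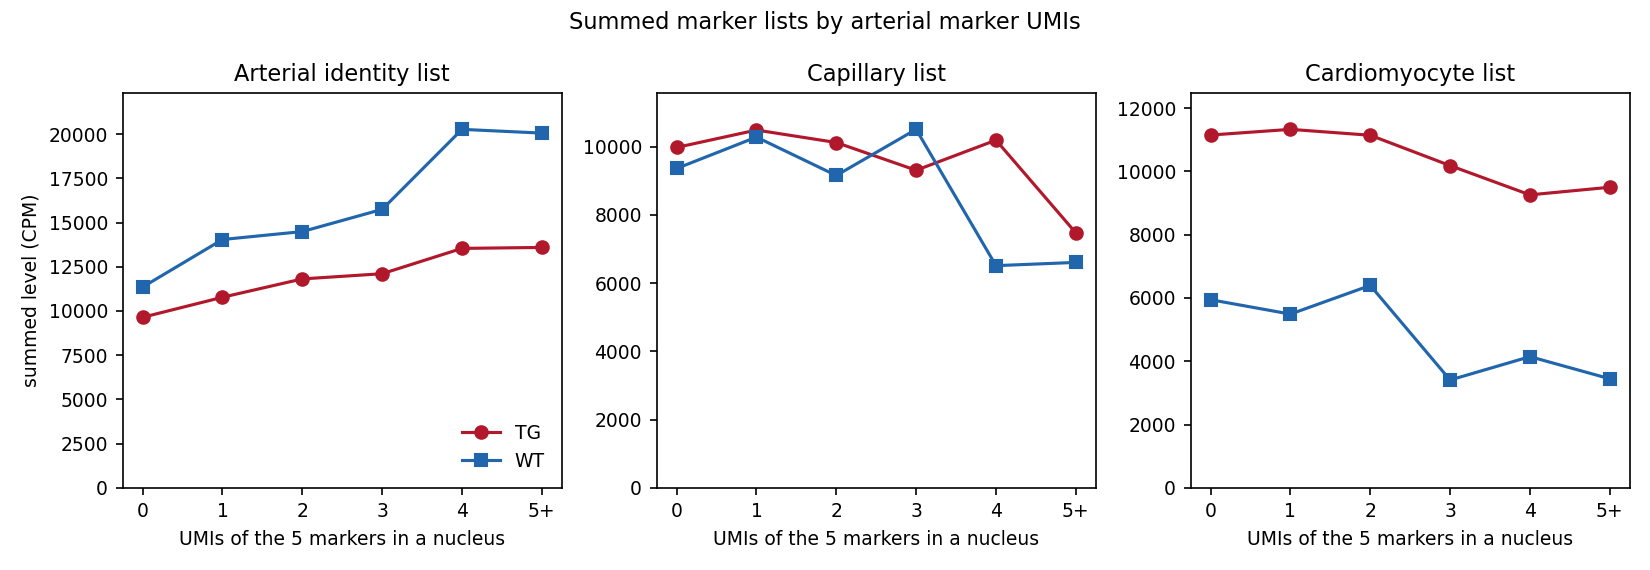
Summed CPM of the arterial identity, capillary and cardiomyocyte marker lists in nuclei with 0, 1, 2, 3, 4 and 5 or more UMIs of the 5 selecting markers, for TG (red) and WT (blue). Members are the nuclei with 3 or more; the arterial list is highest and the capillary list lower at 4 or more in WT and at 5 or more in TG.

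Members also differed by the route into the class. The 148 TG and 33 WT members that qualified by the other 4 markers had arterial identity sums of 15019 CPM in TG and 21211 CPM in WT. The 327 TG and 36 WT members that needed SLPI had 12277 CPM in TG and 16191 CPM in WT. The capillary list summed to 5338 CPM in TG and 5697 CPM in WT by the other 4 markers, and to 9919 CPM in TG and 9986 CPM in WT through SLPI. PCSK5 showed the split most plainly, with 683 CPM in TG and 838 CPM in WT by the other 4 markers against 108 CPM in TG and 69.9 CPM in WT through SLPI. GJA4 was at 101 CPM in TG and 83.8 CPM in WT by the other 4 markers, against 34.3 CPM in TG and 7.77 CPM in WT through SLPI. Both libraries thus held members with strong arterial and weak capillary transcripts, beside members whose capillary list was as abundant as in capillary-type nuclei. The members that needed SLPI were 327 of 475 in TG and 36 of 69 in WT.

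Between genotypes, a gene was counted as higher or lower in TG when its CPM ratio was at least 1.5 in either direction with an interval that left out 1. Of the 9180 genes measured in members, 679 were higher in TG, which is 7.4%, and 611 were lower in TG, which is 6.66%. The median log2 ratio over all genes was -0.03. With TMM scaling 847 were higher and 449 lower, so that 65.4% of the counted genes were higher, against 52.6% without it. The sizes of lists in members are read below against these shares. In capillary-type nuclei 1230 genes were higher in TG and 876 lower of 11912, with a median log2 ratio of -0.02. In members chosen without SLPI 501 were higher and 512 lower of 5825, with a median of -0.04. List counts in those nuclei are read against these.

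The arterial identity genes were lower in TG more often than genes in general. Of 28 measured, 11 were lower and 1 higher, with a median log2 ratio of -0.33. The list lay on the same side in capillary-type nuclei, where 11 were lower and 2 higher of 28, with a median of -0.40. In members chosen without SLPI 8 were lower and 4 higher of 27, with a median of -0.10. When the profile of nuclei outside endothelium was taken off as an estimate of free RNA, the list median was 1.70 in place of -0.33, while the median over all genes was 1.15. With totals kept in that step it was -0.48, against -1.03 over all genes. Relative to all genes the list thus stood higher in TG under both versions, so its direction did not hold there.

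Among the lower genes were DLL4, EFNB2 and VEGFC. VEGFC, a growth factor that acts on VEGF receptors, lies at chr15:39037764-39136234. It was at 213 CPM in TG members (191 to 238) and 784 CPM in WT members (680 to 900), a ratio of 0.272 (0.228 to 0.326). A VEGFC UMI was found in 28.6% of TG members and 60.9% of WT members. In capillary-type nuclei VEGFC was at 151 CPM in TG and 284 CPM in WT, and outside endothelium at 17.9 CPM in TG and 32.3 CPM in WT. VEGFC was lower in TG in both endothelial classes and in members chosen without SLPI, where its ratio was 0.340. With free RNA taken off its log2 ratio was 0.22, still below the 1.15 of all genes in that setting.

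The Notch ligand DLL4, at chr1:130376720-130386411, was at 35.6 CPM in TG members (26.8 to 46.3) and 115 CPM in WT members (77.8 to 165), a ratio of 0.308 (0.194 to 0.498). In capillary-type nuclei it was at 19.5 CPM in TG and 37.3 CPM in WT. Its log2 ratio was 0.42 with free RNA taken off, also below the 1.15 of all genes. EFNB2, the arterial ephrin, was at 308 CPM in TG members and 523 CPM in WT members, a ratio of 0.589 (0.486 to 0.718), and with free RNA taken off its log2 ratio of -0.77 became 1.38, above the 1.15 of all genes. MECOM, a transcription factor of arterial endothelium, was at 2978 CPM in TG members and 5145 CPM in WT members, a ratio of 0.579 (0.545 to 0.616). With free RNA taken off the log2 ratio was 1.35 for MECOM and 1.40 for ARL15, both also above the 1.15 of all genes. The netrin receptor UNC5B, elastin (ELN), the latent TGF-beta binding protein LTBP4, PCSK5, PRDM16, ARL15 and the angiotensin-converting enzyme ACE made up the rest, with ratios between 0.252 for ACE and 0.639 for PCSK5. Each gene's UMIs in its fullest nucleus were also taken off each library, with the library totals kept. The ratio was then 0.789 for PCSK5, 0.680 for EFNB2 and 0.686 for ARL15, no longer past 1.5-fold, and 0.628 for MECOM. The UMIs of other genes in those nuclei stayed in the totals. Whether these genes pass with the nuclei left out wholly was not tested.

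DLL4 was the Notch gene that was counted. Of 26 measured genes of the pathway, 1 was lower in TG and 0 were higher, with a median log2 ratio of -0.09. JAG1 was at 284 CPM in TG members and 249.9 CPM in WT members, a ratio of 1.14 (0.874 to 1.498). JAG2 had a ratio of 1.13 (0.789 to 1.66), NOTCH4 of 0.822 (0.637 to 1.07) and NOTCH1 of 0.662 (0.440 to 1.02). The target HEY2 was at 25.9 CPM in TG members and 15.4 CPM in WT members, from 40 and 4 UMIs, with a ratio of 1.68 (0.608 to 6.47), too few to tell a difference at this depth. HES1 had a ratio of 1.95 (0.790 to 6.23).

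CLDN5 was the arterial identity gene counted as higher in TG. It lies at chr14:51161490-51162382 and was at 283 CPM in TG members (257 to 311) and 135 CPM in WT members (93.7 to 187), a ratio of 2.11 (1.49 to 3.06). In capillary-type nuclei it was at 96.6 CPM in TG and 154 CPM in WT, a ratio of 0.628 (0.531 to 0.742), so the direction was the opposite. In members chosen without SLPI the ratio was 4.93 (3.03 to 8.57). With members left out that held 3 or more UMIs of another class's markers, its log2 ratio of 1.055 became -0.061. That setting left 163 TG and 38 WT members. With GSN and RBPJ taken out of those markers, which left 313 TG and 43 WT members, the sign of CLDN5 did not change. Of 20 measured junction genes 2 were higher in TG and 2 lower, among them AFDN and RAPGEF1, with ratios of 0.486 and 0.458.

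**Figure D4:**
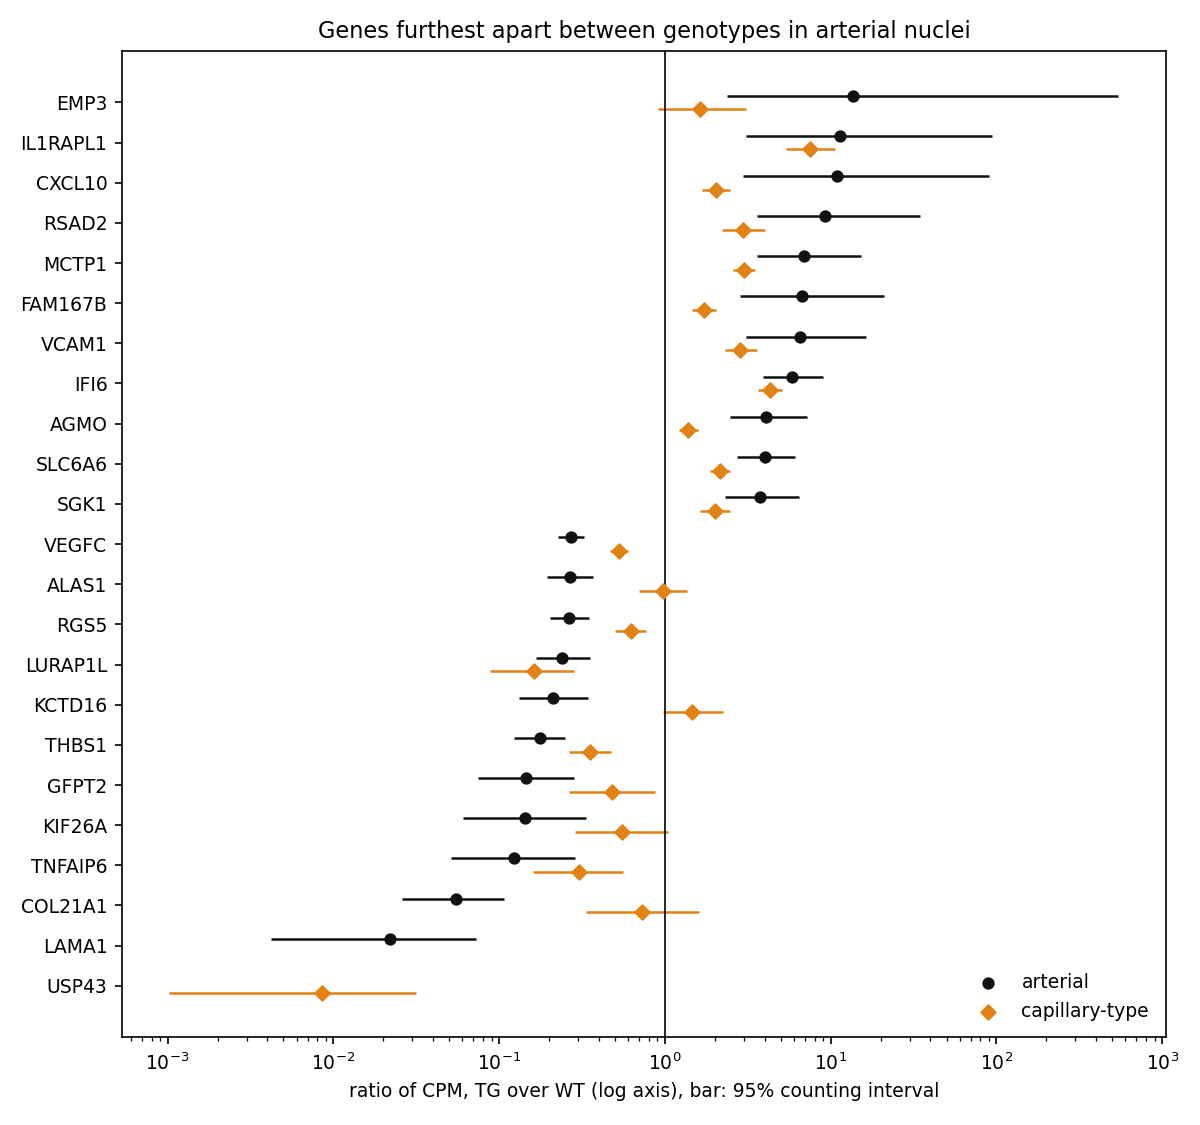
Ratio of CPM in TG over WT, on a log axis, in members (black circles) and capillary-type nuclei (orange diamonds). The genes are those furthest apart between genotypes in members, ranked by the bound of the counting interval nearest to 1. Bars are 95% intervals for counting error only, and hold no variation between nuclei or pigs. All GFPT2 UMIs of WT members lay in 1 nucleus. PSP-II is not drawn because WT members held none, USP43 has no circle because TG members held none, and LAMA1 has no diamond because capillary-type nuclei held none.

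Capillary genes did not share the direction of the arterial ones. Of 15 measured, 3 were higher in TG members and 0 lower, with a median log2 ratio of 0.26. CA4, the carbonic anhydrase on the capillary surface, was at 103 CPM in TG members and 23.1 CPM in WT members, a ratio of 4.46 (2.00 to 12.3) resting on 6 WT UMIs. RGCC was at 591 CPM in TG members and 350 CPM in WT members, a ratio of 1.69 (1.36 to 2.12). The third was BTNL9, at 244 CPM in TG and 154 CPM in WT. Without SLPI in the choice 1 gene was higher and 1 lower of 12, with a median of 0.07, and CA4 and RGCC no longer counted. The ratio there was 3.71 (0.565 to 157) for CA4, from 1 WT UMI, and 1.25 (0.826 to 1.95) for RGCC.

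Interferon response genes stood higher in TG as a group. Of 26 measured, 13 were higher and 0 lower, with a median log2 ratio of 0.66, against 7.4% higher over all genes. They were ISG15, ISG20, MX2, IFI6, IFI44, DDX60, OAS2, RSAD2, HERC6, PARP14, CMPK2, EPSTI1 and SAMD9. IFI6, an interferon-induced mitochondrial protein at chr6:84852782-84858072, was at 559 CPM in TG members and 96.1 CPM in WT members, a ratio of 5.82 (3.92 to 9.04). It was detected in 60.4% of TG members and 17.4% of WT members, with 36.0% of its WT UMIs in 1 nucleus. RSAD2, which encodes the antiviral enzyme viperin, was at 143 CPM in TG members and 15.4 CPM in WT members, a ratio of 9.29 (3.58 to 34.4), with 3 WT nuclei holding its UMIs.

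The same list was higher in TG in capillary-type nuclei, with 16 higher and 0 lower of 27 and a median of 0.71. IFI6 there had a ratio of 4.31 (3.65 to 5.12) and RSAD2 of 2.95 (2.20 to 4.03). Outside endothelium IFI6 was at 42.1 CPM in TG and 9.93 CPM in WT, well under its level in members. With free RNA taken off the list median was 2.77, against 1.15 over all genes. ISG20 was at 18.8 CPM in TG members and had 0 UMIs in WT members, at least 1.63-fold higher against a limit of 3 UMIs with the TG level taken as measured. The counting interval of that ratio, which adds the error of the TG level, starts at 1.24.

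Leukocyte adhesion and chemokine genes gave 4 higher and 0 lower of 19, with a median log2 ratio of 0.46. VCAM1, the adhesion molecule for monocytes and lymphocytes, was at 175 CPM in TG members and 26.9 CPM in WT members, a ratio of 6.49 (3.11 to 16.3). Of the WT VCAM1 UMIs 42.9% came from a single nucleus. In capillary-type nuclei VCAM1 had a ratio of 2.85 (2.30 to 3.58). CXCL10, a chemokine that interferon induces, was at 83.4 CPM in TG members and 7.69 CPM in WT members, where both UMIs lay in 1 nucleus. CCL5 was at 29.8 CPM in TG members and 0 in WT members, at least 2.58-fold higher against 3 UMIs, with an interval that starts at 2.01. CXCL2 was the remaining one. CCL5 is also made by lymphocytes, whose markers SKAP1, PTPRC and IKZF3 were higher in TG members and PRKCQ lower, at 14.2 CPM in TG and 73.1 CPM in WT. The summed lymphocyte list was at 313 CPM in TG and 158 CPM in WT members. Of its 10 genes 7 had no UMI in WT members, among them CD3E and CD3D. Members with 3 or more UMIs of the list were 4.84% in TG and 11.6% in WT, and their part in CCL5 was not tested.

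Coagulation genes gave 4 higher and 0 lower in TG members of 10, with a median log2 ratio of 0.69. SERPINE2, a secreted inhibitor of thrombin and plasminogen activators, was at 98.3 CPM in TG members and 38.5 CPM in WT members, a ratio of 2.56 (1.35 to 5.44) from 10 WT UMIs. It was also higher in TG in capillary-type nuclei, at a ratio of 2.77 (1.81 to 4.40), and outside endothelium it was at 70.4 CPM in TG and 26.8 CPM in WT. TFPI, the inhibitor of the tissue factor pathway, was at 27.8 CPM in TG members and 3.85 CPM in WT members, where it rested on 1 UMI. PLAT, the tissue plasminogen activator, and coagulation factor F8 were the others. The list gave 2 higher and 2 lower of 9 in capillary-type nuclei, with a median of -0.098. With members left out that held 3 or more UMIs of the markers of another class, the list median was -0.18, and with GSN and RBPJ taken out of those markers it was 0.36. In members chosen without SLPI 5 of 9 were higher and 0 lower, with a median of 1.099.

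Genes of vascular tone gave 5 higher and 1 lower of 22, with a median log2 ratio of 0.11. EDN1, the vasoconstrictor endothelin 1, was at 67.3 CPM in TG members and 15.4 CPM in WT members, a ratio of 4.37 (1.66 to 16.4) from 4 WT UMIs. In members chosen without SLPI its ratio was 2.83 (0.885 to 14.4), which no longer counted. In capillary-type nuclei EDN1 was at 13.7 CPM in TG and 16.3 CPM in WT. RAMP2, a partner of CALCRL, was at 625 CPM in TG members and 261 CPM in WT members. RAMP3, another partner, was at 121 CPM in TG members and 50.0 CPM in WT members. EDNRA and PDE3A were also higher, and ACE was lower, at 9.70 CPM in TG and 38.5 CPM in WT members. EDNRA was at 34.3 CPM in TG members and 7.69 CPM in WT members, from 2 WT UMIs. Outside endothelium it was far higher, at 259 CPM in TG and 339 CPM in WT. The part of RNA from other cells in its value was not tested. NOS3, the endothelial nitric oxide synthase, was at 97.7 CPM in TG and 76.9 CPM in WT members and was not counted.

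Glucocorticoid and fasting response genes gave 6 higher and 0 lower of 16, with a median log2 ratio of 0.37, and 6 higher and 1 lower of 18 in capillary-type nuclei. They were PDK4, FKBP5, CEBPD, SGK1, GADD45B and CPT1A. SGK1, a kinase induced by corticosteroids, was at 244 CPM in TG members and 65.4 CPM in WT members, a ratio of 3.73 (2.30 to 6.47), and had a ratio of 2.00 (1.62 to 2.47) in capillary-type nuclei. Immediate early and heat shock genes went the other way, with 5 lower and 1 higher of 15 and a median of -0.36. FOS was at 36.9 CPM in TG members and 112 CPM in WT members, a ratio of 0.331 (0.208 to 0.536), with 41.4% of the WT UMIs in a single nucleus. EGR1 was at 20.1 CPM in TG members and 65.4 CPM in WT members, and JUN, NR4A1 and NR4A3 were lower as well. FOS and EGR1 were at log2 ratios of 0.41 and 0.095 with free RNA taken off, both below the 1.15 of all genes.

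The bone morphogenetic protein (BMP) receptor BMPR2, a receptor for BMP9 and BMP10 on endothelium, was at 1660.3 CPM in TG members and 831 CPM in WT members, a ratio of 2.00 (1.74 to 2.31). Its ratio was 1.55 (1.45 to 1.67) in capillary-type nuclei. BMPR1A and SMAD9 were higher too, while TGFBR1, BMP4 and LTBP2 were lower, so the TGF-beta and BMP list gave 3 in each direction of 30, with a median log2 ratio of -0.15. Of the 10 LTBP2 UMIs in WT members 80.0% lay in 1 nucleus. With the LTBP2 UMIs of the fullest nucleus taken off each library, its ratio was 1.01 in place of 0.235. In the flow response list TXNIP was at 1725 CPM in TG members and 807 CPM in WT members, a ratio of 2.14 (1.86 to 2.47). The transcription factors that laminar flow induces were not counted. KLF2 was at 537 CPM in TG members and 415 CPM in WT members, and KLF4 at 157 CPM in TG members and 173 CPM in WT members.

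Matrix genes were mixed, with 4 higher and 7 lower of 27 and a median log2 ratio of -0.03. ELN was at 28.5 CPM in TG members and 61.5 CPM in WT members, a ratio of 0.463 (0.256 to 0.878). FBN1, LTBP4, COL15A1, LAMA3, SPARC and SPARCL1 were also lower, and EFEMP1, LAMA5, LAMB1 and MGP higher. EFEMP1 was at 59.5 CPM in TG members and 11.5 CPM in WT members, from 3 WT UMIs. Outside endothelium EFEMP1 was at 125 CPM in TG and 104 CPM in WT, and the part of RNA from other cells in its value was not tested. LAMB1 had a ratio of 2.22 in members and 0.933 in capillary-type nuclei. Among guidance genes ROBO1 and PLXNA4 were higher and UNC5B, PLXNA2, SEMA6A and EFNB2 lower, of 21. ROBO1 rested on 6 WT UMIs, 66.7% of them in 1 nucleus. Its ratio was 2.495, and 6.39 with the ROBO1 UMIs of the fullest nucleus taken off each library. SEMA6A was lower in both classes, with a ratio of 0.577 (0.460 to 0.728) in members and 0.554 (0.516 to 0.595) in capillary-type nuclei. Oxidative stress genes gave 3 higher, PRDX2, MGST1 and NOX4, and 1 lower, GPX3, of 20. MGST1 is also on the fibroblast list and had no UMI in WT members, and the part of RNA from other cells in its value was not tested.

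**Figure D5:**
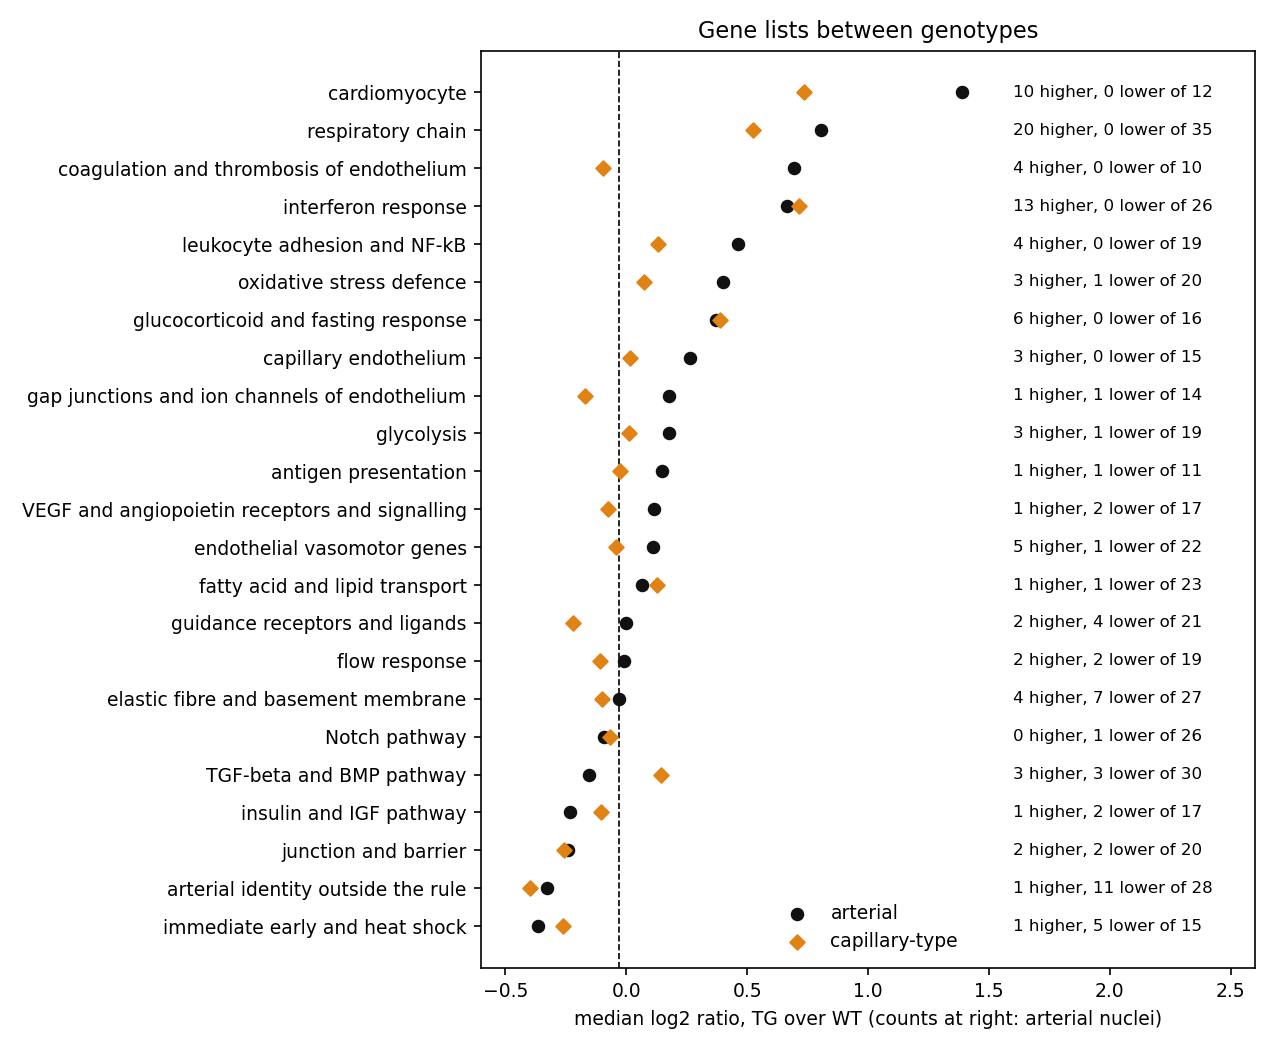
Median log2 ratio of TG over WT for the gene lists with at least 10 measured members, in arterial (black circles) and capillary-type nuclei (orange diamonds), with the counts of genes higher and lower in arterial nuclei at right and the median of all genes as a dashed line. The interferon and cardiomyocyte lists lie right of the line in both classes and the coagulation list in arterial nuclei; with free RNA taken off and totals kept, the cardiomyocyte list is at -1.11, against -1.03 for all genes.

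Transcripts of cardiomyocytes also differed between the libraries within members. Of 12 measured cardiomyocyte markers 10 were higher in TG and 0 lower, with a median log2 ratio of 1.39, and the respiratory chain gave 20 higher and 0 lower of 35, with a median of 0.81. The summed cardiomyocyte list was at 9656 CPM in TG members and 3522 CPM in WT members, 11149 CPM in TG and 5945 CPM in WT capillary-type nuclei, and 10622 CPM in TG and 11471 CPM in WT nuclei outside endothelium. In TG members these transcripts were thus about as abundant as outside endothelium, and in WT members they were not. MYH7, a myosin heavy chain of cardiomyocytes, was at 3332 CPM in TG members and 815 CPM in WT members. ANKRD1, a stress gene of cardiomyocytes and of the flow response list, was at 497 CPM in TG members and 46.1 CPM in WT members, and at 1678 CPM in TG and 1460.5 CPM in WT outside endothelium. The part of these transcripts in the respiratory chain and ANKRD1 values was not tested. With free RNA taken off and totals kept, the cardiomyocyte list had a median of -1.11 and the respiratory chain list of -0.059, against -1.03 over all genes. The respiratory chain list therefore stayed above genes in general, and the cardiomyocyte list, on which that step is scaled, did not.

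Markers of other classes were present at lower summed levels than those of cardiomyocytes, but in many members. Members with 3 or more fibroblast UMIs were 54.5% in TG and 31.9% in WT, against 38.8% in TG and 11.3% in WT capillary-type nuclei. Leaving out members with 3 or more UMIs of another class kept 163 of 475 in TG and 38 of 69 in WT. Without GSN and RBPJ among those markers it kept 313 in TG and 43 in WT. The fibroblast list summed to 1913 CPM in TG and 1334 CPM in WT members, of which GSN alone gave 1228 CPM in TG and 504 CPM in WT. By gene 2 of its 12 measured members were higher in TG and 3 lower, with a median log2 ratio of -0.21. The pericyte list summed to 426 CPM in TG and 723 CPM in WT members, against 459 CPM in TG and 281 CPM in WT capillary-type nuclei. The macrophage list summed to 581 CPM in TG and 750 CPM in WT members. In WT members 41.0% of the macrophage UMIs and 76.5% of the Schwann or neural UMIs came from a single nucleus. The venous list summed to 387 CPM in TG and 285 CPM in WT members. Of its 7 measured genes 1, VCAM1, was higher in TG and 0 lower, with a median log2 ratio of -0.14. ACKR1 of that list had no UMI in TG members and 4 in WT members, and TSHZ2 had none in WT members.

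Of the 12 genes most clearly higher in TG members, RSAD2, IFI6, CXCL10, VCAM1 and SGK1 have been described. PSP-II, a spermadhesin gene at chr14:132274265-132281728, had 132 UMIs in 38 TG members and 0 UMIs in WT members, which put it at 85.4 CPM in TG and at least 7.40-fold higher against 3 UMIs, with an interval that starts at 5.94. It was at 3.66 CPM in TG and 0 in WT capillary-type nuclei, and at 1.48 CPM in TG and 0.0852 CPM in WT outside endothelium. SLC6A6, the taurine transporter, was at 417 CPM in TG members and 104 CPM in WT members, a ratio of 4.01 (2.73 to 6.14), and had a ratio of 2.15 in capillary-type nuclei. AGMO, which cleaves ether lipids, was at 249 CPM in TG members and 61.5 CPM in WT members, a ratio of 4.05 (2.46 to 7.15). EMP3, FAM167B, MCTP1 and IL1RAPL1 completed the set, with WT values from 1, 5, 9 and 2 UMIs.

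Of the 12 most clearly lower in TG, several rested on few WT nuclei. LAMA1, a laminin chain, was at 1.94 CPM in TG members and 88.4 CPM in WT members, a ratio of 0.0219 (0.00422 to 0.0726), with its UMIs in 10.1% of WT members and none in capillary-type nuclei of either library. ALAS1, the first enzyme of haem synthesis, was spread more widely. It was at 66.6 CPM in TG members and 250 CPM in WT members, a ratio of 0.267 (0.194 to 0.369), and was detected in 14.9% of TG members and 46.4% of WT members. In capillary-type nuclei ALAS1 was at 32.3 CPM in TG and 33.2 CPM in WT. USP43, a ubiquitin-specific protease, had 0 UMIs in TG members and 17 UMIs in 13 WT members, which put it at 65.4 CPM in WT members and at least 33.7-fold lower in TG against 3 UMIs, with an interval that starts at 24.5-fold. It was at 0.609 CPM in TG and 71.1 CPM in WT capillary-type nuclei, from 2 UMIs in TG and 122 UMIs in WT, and at 0.583 CPM in TG and 2.66 CPM in WT outside endothelium. All GFPT2 UMIs of WT members lay in 1 nucleus, and 93.3% of those of TNFAIP6. With the gene's UMIs in the fullest nucleus taken off each library, GFPT2 turned to a log2 ratio of 2.29 and TNFAIP6 stood at -0.07. VEGFC has been described. THBS1, RGS5, LURAP1L, COL21A1, KCTD16 and KIF26A were the others, with the fullest WT nucleus holding between 21.4% for KIF26A and 47.1% for LURAP1L. RGS5 is also a pericyte gene.

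The pig orthologues of the transgenes gave too few UMIs to compare. GIPR had 1 UMI in TG members and 0 in WT members, IAPP had 2 UMIs in TG and 0 in WT, and PNPLA3 had 0 in both. Whether transcripts of the human or altered transgenes align to these pig genes is not given in the sources used here.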

How the data were processed

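Single-nucleus RNA was measured in 2 libraries. The deposited matrices hold UMI counts per gene and barcode; per the file headers they come from Cell Ranger 5.0.0, while the submitters' processing notes name Cell Ranger 3.1.0, Seurat 3.1.1 and the Sscrofa11.1 build. They list 15000 TG and 18251 WT barcodes. No doublet caller was run, and no cell annotation was used.

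Members were found by the marker rule, and their UMIs summed per library. CPM is UMIs per 1e+06 nuclear-encoded UMIs, leaving out 13 mitochondrial genes. Levels have Poisson intervals, ratios exact conditional binomial intervals and shares Clopper-Pearson intervals, all at 95% and for counting error only. A gene was measured where the members of TG and WT summed to 20 UMIs or more, and log2 ratios add 0.5 to each count. Gene symbols came from the matrices, with 841 added from the reference table, and coordinates from RefSeq (Sscrofa11.1) by symbol. Members, lists and rules were chosen with earlier results of these data known.

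The named genes were all measured arterial identity and Notch genes, the 2 furthest genes of every other list in each direction, and by size the 12 highest and 12 lowest between genotypes and 15 highest and 10 lowest against capillary-type nuclei. Certain genes are not reported here and were taken out of the lists and rankings. Other genes of a list were named after their values were seen. The genotype picks needed at least 50 CPM, at least 2 times the level outside endothelium, and were ranked by the interval's bound on the side of 1; the others needed at least 30 CPM in both libraries.

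As alternatives, marker thresholds, depth, scaling and filters were varied. Free RNA was taken off as the profile outside endothelium, at the share that accounts for the median cardiomyocyte marker: 85.5% of UMIs in TG and 33.9% in WT members, 96.5% in TG and 58.0% in WT capillary-type nuclei. Python 3.11.15, scipy 1.17.1, R 4.3.3 and edgeR 4.0.16 (TMM) were used. The interval procedure was run on simulated Poisson sums. These held no variation between nuclei or pigs, so the run cannot show how the intervals hold under such variation.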

Additional observations from a re-analysis of the deposited data

Results flagged for a closer look

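For 2 named genes outside the rule the direction between genotypes was opposite in arterial and capillary-type nuclei. The difference between the classes was not tested, since each genotype has 1 library. CLDN5 had a ratio of TG over WT of 2.11 in arterial nuclei, from 438 UMIs in TG and 35 UMIs in WT, and of 0.628 in capillary-type nuclei, from 317 UMIs in TG and 264 UMIs in WT. C1QA, a complement gene of macrophages, had ratios of 0.310 in arterial and 1.75 in capillary-type nuclei, with 42.1% of the WT arterial UMIs in 1 nucleus.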

How the results depend on the processing

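Several settings moved the summary values. With the PLVAP and MYRIP conditions dropped, 1427 genes were higher in TG, and members had a ratio of TG over WT of 5.70 of kept nuclei and 2.44 of vascular endothelium. With members that held markers of another class left out, 394 genes were higher and 391 lower, and the ratios were 4.80 and 2.06. A version of that setting without GSN and RBPJ, added after seeing the data, gave 448 higher. Leaving SLPI out, also added then, gave ratios of 5.02 and 2.15 and a TG median of 1.51 for arterial identity genes over capillary-type nuclei. Thinning to 2000 UMIs gave 317 higher and 399 lower, at least 100 UMIs per gene 428 and 321, and a ratio of at least 2 gave 304 lower. With free RNA taken off 4625 genes were higher, the TG identity median over capillary-type nuclei was -0.83 in place of 0.92, and the median of all genes between genotypes was 1.15. With totals kept, added after seeing the data, 215 were higher and 3363 lower around a median of -1.03. Both shifts of all genes follow from taking a larger share off TG. The identity median of -0.83 also holds a shift of scale, since 96.5% was taken off TG capillary-type nuclei and 85.5% off TG members. The other settings left the counts within 1.5 times.

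The sign changed in these log2 ratios of TG over WT. Where free RNA was taken off, the shift of all genes is part of the change: of 21 results that changed sign 16 stayed on the same side of the median of all genes, and of 5 with totals kept 2 did. With free RNA taken off the values were 0.89 for AFDN, 1.08 for SHB, 0.87 for RAPGEF1, 0.052 for LURAP1L, 1.02 for PCSK5, 0.42 for DLL4, 1.34 for PPARG, 1.35 for MECOM, 0.64 for LTBP4, 0.095 for EGR1, 0.92 for LDHA, 1.061 for SEMA6A, -5.07 for CDK1, 0.99 for UNC5B, 0.22 for VEGFC, 0.55 for ELN, 0.41 for FOS, 0.98 for TAP1, 1.40 for ARL15, 0.76 for SPARC and 1.38 for EFNB2. With totals kept they were -1.11 for the cardiomyocyte list, -0.059 for the respiratory chain list, -1.55 for GSN, -7.26 for CDK1 and -0.13 for PLXNA4. With markers of another class left out it was -0.18 for the coagulation list, 0.31 for GFPT2, 0.026 for LDHA, -0.061 for CLDN5, -3.60 for TFPI, 0.31 for COL1A1 and -0.43 for IKZF3, and without GSN and RBPJ 0.045 for ELN and 0.70 for COL1A1. With at least 2 marker UMIs it was -0.41 for EDNRA, -0.50 for SYNPO2 and -0.42 for F13A1. With the PLVAP and MYRIP conditions dropped it was -1.31 for ROBO1, -0.39 for IL1RAPL1, 0.067 for TAP1 and -0.21 for PLXNA4. Thinning gave 0.49 for the macrophage list, 0.44 for GFPT2, 0.11 for COL1A1 and -0.25 for PLXNA4. Without SLPI NAV3 was at -0.26, and with at most 1% mitochondrial UMIs COL1A1 was at 1.44. Taking off the gene's UMIs in the fullest nucleus of each library, with totals kept and added after seeing the data, gave 2.29 for GFPT2. The cause was not tested where not named.

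No paired analysis was possible because each genotype has 1 library; leaving out a replicate was not done for the same reason. With 263321 UMIs in WT members, genes with few WT UMIs have wide intervals, so a difference that was not counted is not shown to be absent.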
